A study of Mus musculus with 12 samples.

Results

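The AP-1 and Egr immediate early genes measured here are the Fos family (Fos, Fosb, Fosl1 and Fosl2), the Jun family (Jun, Junb and Jund), Atf3, Egr1 and Egr2. They were chosen by name, with earlier results of these data known, as 10 of the 35602 gene symbols in the count table. All 10 were among the 15708 genes that passed the filter on low counts. RNA was sequenced from mouse embryonic fibroblasts (MEFs), cells grown from embryos and kept in DMEM with serum and antibiotics. The 4 groups had 3 libraries each: MEFs with a mutation of Ezh2a, MEFs of their wild-type littermates, MEFs with a mutation of Ezh2b, and MEFs of that mutant's own wild-type littermates. The series title speaks of EZH2 protein isoforms that arise from cryptic splice sites. The labels say neither what either mutation changes nor whether the libraries of a group came from separate embryos or cultures, and no library was labelled as stimulated.

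Immediate early genes are transcribed within minutes of a signal such as serum, growth factor or stress, without new protein synthesis. The name is used here for the set as a whole, and the induction of each member was not measured. Fos and Jun proteins are basic leucine zipper factors that pair through their zippers and bind DNA as AP-1. Jun proteins can pair with each other, whereas Fos proteins need a Jun partner. Atf3 is a stress-induced factor of the same zipper class that also pairs with Jun proteins, and Egr1 and Egr2 are zinc finger factors that bind GC-rich sites. In serum-grown fibroblasts, ERK signalling through SRF and its Elk partners induces Fos, Egr1 and their relatives. EZH2 is the methyltransferase of Polycomb repressive complex 2 and places methyl groups on lysine 27 of histone H3.

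The promoters of 5 members that passed the test in a mutant comparison show how different the starts of these genes are. Each window runs from 250 bases before to 50 bases after the RefSeq start (GRCm38.p6), 5′ to 3′ on the strand of the gene, and capitals mark a match to 1 of the factor sites spelled out after the sequences. The Jun window is chr4:95052173-95052472 on the minus strand, Junb chr8:84978699-84978998 on the minus strand, Fos chr12:85473640-85473939 on the plus strand, Fosl2 chr5:32136222-32136521 on the plus strand and Atf3 chr1:191183284-191183583 on the minus strand.
Jun: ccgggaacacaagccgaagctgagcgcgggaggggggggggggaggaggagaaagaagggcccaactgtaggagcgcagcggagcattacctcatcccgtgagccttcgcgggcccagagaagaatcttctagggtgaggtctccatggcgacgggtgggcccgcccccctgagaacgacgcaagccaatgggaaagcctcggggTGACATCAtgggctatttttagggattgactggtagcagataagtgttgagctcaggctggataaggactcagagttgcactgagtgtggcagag
Junb: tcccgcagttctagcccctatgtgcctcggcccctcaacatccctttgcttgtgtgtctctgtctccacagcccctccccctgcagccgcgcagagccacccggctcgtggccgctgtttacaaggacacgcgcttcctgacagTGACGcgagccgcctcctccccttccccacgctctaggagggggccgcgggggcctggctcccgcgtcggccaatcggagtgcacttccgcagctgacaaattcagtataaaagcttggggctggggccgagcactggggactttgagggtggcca
Fos: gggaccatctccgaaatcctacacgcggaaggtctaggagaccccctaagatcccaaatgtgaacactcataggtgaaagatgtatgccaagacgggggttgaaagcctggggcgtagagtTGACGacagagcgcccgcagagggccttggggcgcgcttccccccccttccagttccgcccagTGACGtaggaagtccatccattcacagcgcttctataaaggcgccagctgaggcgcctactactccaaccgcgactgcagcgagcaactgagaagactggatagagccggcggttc
Fosl2: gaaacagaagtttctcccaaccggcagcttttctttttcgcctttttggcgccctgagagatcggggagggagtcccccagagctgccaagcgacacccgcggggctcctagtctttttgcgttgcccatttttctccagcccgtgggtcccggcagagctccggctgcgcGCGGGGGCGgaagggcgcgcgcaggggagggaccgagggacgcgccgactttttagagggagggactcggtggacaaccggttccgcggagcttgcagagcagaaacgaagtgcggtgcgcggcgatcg
Atf3: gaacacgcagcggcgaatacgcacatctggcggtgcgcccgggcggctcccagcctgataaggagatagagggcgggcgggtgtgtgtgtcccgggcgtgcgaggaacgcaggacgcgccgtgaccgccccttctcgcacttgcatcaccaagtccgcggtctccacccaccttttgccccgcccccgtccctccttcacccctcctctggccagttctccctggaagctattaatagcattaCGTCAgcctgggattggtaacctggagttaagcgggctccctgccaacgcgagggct

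The letter patterns were searched on both strands in these windows and in all 32841 RefSeq windows of the same length. The AP-1 site TGANTCA was in 7.81% of all windows and in none of the 8 members that had a window read (Fos, Fosb, Fosl2, Jun, Junb, Jund, Atf3 and Egr2). For Jund, that window (chr8:70697489-70697788) ends before the GENCODE M21 start of the gene at 70698949, so the sequence at that start was not searched. The 8-base site TGACNTCA, bound by Jun and ATF pairs, was in 8.83% of all windows, and Jun carries it 45 bases before its start. The CRE core TGACG, which is also part of the longer site where N is G, was in 20.8% of all windows. It was found in Fos at 129 and 66 bases before the start, in Fosb at 60, in Junb at 106, in Atf3 at 7 on the opposite strand, and in Egr2. The Egr site GCGNGGGCG was in 5.55% of all windows, and Fosl2 and Fosb hold it 79 and 50 bases before their starts. The CArG box, the site of SRF, was also searched on both strands and was in 1.63% of all windows. Egr1 and Fosl1 had no window read, and sequence more than 250 bases before a start was not searched. Among the 8 members with a window, the CArG box was in 4 of the 5 Egr2 windows. Those that begin at 67537619, 67537620 and 67537680 overlap and share the same match, CCATATATGG, and the window from 67537316 holds CCTTTTTTGG. TATAAA on the transcribed strand was in 8.32% of all windows and lies 33 bases before the start of Fos. In Junb it is at position 1 from the RefSeq start, which is upstream of the GENCODE M21 start at chr8:84978718. A match describes the letters in a window and is not a measured binding site.

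In GENCODE M21 on GRCm38 the members lie on 9 chromosomes. Jun (chr4:95049034-95052222), Junb (chr8:84974484-84978718) and Jund (chr8:70698949-70700616) have a longest transcript of 1 exon. Fos (chr12:85473890-85477273), Fosb (chr7:19302696-19310051), Fosl1 (chr19:5447547-5455946) and Fosl2 (chr5:32135801-32157842) are spliced, as are Atf3 (chr1:191170296-191218039) and Egr2 (chr10:67535475-67542188). The RefSeq starts used above for Atf3, Fosl2, Fosb and Egr2 lie inside the GENCODE genes, and those for Junb and Jund lie before theirs. Those for Fos and Jun are the GENCODE starts. The site positions above count from the RefSeq starts. Opposite-strand neighbours overlap 4 members: Ccdc85b shares 1055 exon bases with Fosl1, Gm11175 shares 543 with Jund, Junos shares 232 with Jun and Prdx2 shares 173 with Junb. The strand setting of the counting is not given in the sources used here, so reads from those overlaps cannot be told apart.

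Total counts ran from 28811482 to 54070380 per library. Levels of a gene are given as CPM, read counts over the TMM-adjusted library size. Ezh2 was at 14.2 to 15.2 CPM in the Ezh2a mutant libraries, against 30.1 to 30.5 CPM in their wild types (log2 difference -1.06, SE 0.053, adjusted p = 3.38e-11), and at 33.6 to 36.4 CPM in the Ezh2b mutant libraries, against 33.8 to 35.8 CPM in theirs. All 10 fibroblast markers were detected, with summed levels of 55400 to 63940 CPM. The 20 macrophage markers summed to 562 to 604 CPM in the Ezh2b mutant libraries, against 128 to 141 CPM in their wild types, and all 20 rose in that mutant. They summed to 1860 to 1995 CPM in the Ezh2a mutant libraries and 1966 to 2033 CPM in theirs. Of 8 endothelial and 8 epithelial markers, 5 each were under 1 CPM in every library and 1 each was at 0. The epithelial markers summed to 9.31 to 10.2 CPM in Ezh2a mutant libraries and 25.4 to 26.05 CPM in their wild types, and to 16.5 to 19.4 CPM in Ezh2b mutant libraries and 23.9 to 29.2 CPM in theirs. The endothelial markers summed to 49.05 to 52.7 CPM in Ezh2a mutant libraries and 37.3 to 37.6 CPM in their wild types, and to 28.5 to 32.4 CPM in Ezh2b mutant libraries and 47.5 to 53.9 CPM in theirs. The part of these markers in the members' values was not tested. In bulk libraries, fewer cells of a type and less RNA per cell cannot be told apart. Replicate 3 of the Ezh2b wild type stood apart from the other 2 libraries of its group. Its mean chi-square per gene was 12.1 and 13.3, against at most 4.9 for the other pairs within groups. Comparisons that turn on that replicate are given without it too. Adjusted p-values come from edgeR's quasi-likelihood test over all 15708 genes, and rose, fell and changed are used where they are under 0.05. They measure the spread between these libraries, which may be partly technical.

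Per kb of all annotated exons, Jund and Jun were the most abundant members and Fosb the least. The places of Fosl2 and Junb depend on the length used. With the length of the longest transcript, Fosl2 comes before Jun and Junb before Egr1 in mean level, and Fosb stays the least. The exons of Fosl2 and Fosb cover 9680 and 6243 bases, against 6537 and 3782 bases in their longest transcripts. Mean levels over the 12 libraries, in CPM per kb of exons, were 37.96 for Jund, 30.4 for Jun, 26.3 for Egr1, 22.8 for Fosl2 and 21.2 for Junb. A second tier followed, with 4.86 for Fos, 3.74 for Egr2, 3.47 for Atf3, 1.86 for Fosl1 and 0.437 for Fosb. Within the first tier the ranges over libraries touch: Jund ran from 32.7 to 50.6 and Jun from 26.4 to 37.9 CPM per kb. The ranges of Fos, Egr2, Atf3 and Fosl1 also overlapped from each to the next, whereas the highest Fosb library (0.519 CPM per kb) was under the lowest Fosl1 library (0.735 CPM per kb). The tiers themselves are apart, since the lowest Junb library (16.7 CPM per kb) was above the highest Egr2 library (6.20 CPM per kb) and the highest Fos library (6.09 CPM per kb).

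Fosl2, which encodes Fra-2, a Fos protein without the strong activation domain of c-Fos, made up most of the Fos family in every group: 75.6% of the family's CPM per kb in Ezh2a mutant cells and 78.4% in their wild type, 77.9% in Ezh2b mutant cells and 72.9% in theirs. Fosl1, which encodes Fra-1, varied most between the groups. Its share was 3.03 ± 0.136% in Ezh2a mutant cells and 3.66 ± 0.57% in their wild type, and 7.41 ± 1.17% in Ezh2b mutant cells and 9.76 ± 0.626% in theirs (SD, n = 3 each). In the Jun family, Jund held 39.9% to 44.5%, Jun 30.8% to 36.7% and Junb 21.8% to 24.8% of the level. Egr1 held 86.5% to 89.0% of the summed level of Egr1 and Egr2. With the length of the longest transcript in place of all exons, the Fosl2 share was 77.8% to 82.4%.

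**Figure D1:**
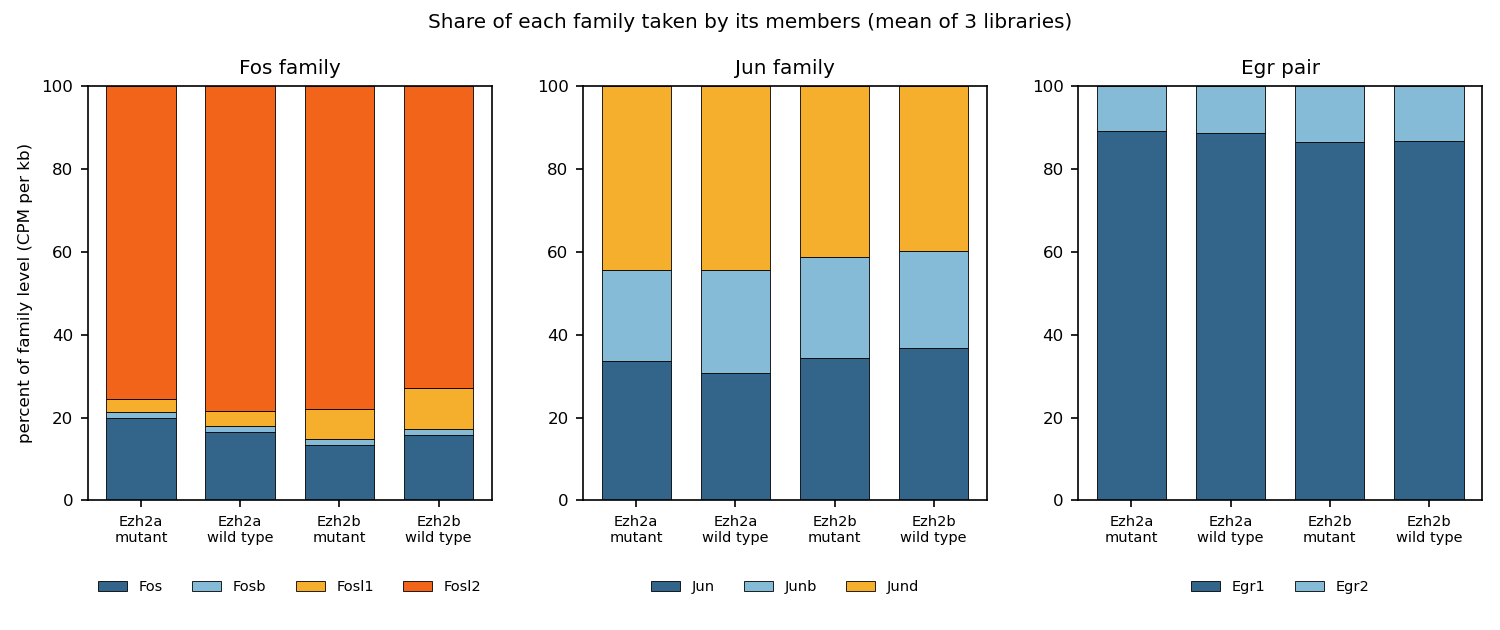
Stacked bars give the percent of the summed CPM per kb of each family that each gene held, as the mean of 3 libraries, in the 4 groups. Fosl2 fills most of the Fos bar in every group, and the Fosl1 band is wider in both Ezh2b groups (7.41% in the mutant and 9.76% in its wild type) than in both Ezh2a groups (3.03% and 3.66%).

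In Ezh2a mutant cells, Fosl2 and Junb fell and Atf3 and Egr1 rose. That is 4 of the 10 members (40%, 2 in each direction), against 19.8% of all genes tested (9.61% higher and 10.2% lower). This difference in share was not tested. The libraries of the groups were apart for 5 members (1 higher, 4 lower), against 37.6% of all genes (18.3% higher, 19.4% lower). The median log2 difference of the members was -0.082, against -0.0015 over all genes. When libraries were scaled by their totals alone, 2061 genes rose and 1117 fell, in place of 1509 and 1609, with the same member counts.

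Fosl2 was at 186, 188 and 195 CPM in the Ezh2a mutant libraries, against 224, 228 and 227 CPM in their wild types. The mutant libraries were all lower and the groups did not overlap. The log2 difference was -0.25 (SE 0.034, adjusted p = 2.31e-05). Junb, which encodes a Jun protein that activates less strongly than c-Jun on many promoters, was at 38.4, 41.7 and 38.6 CPM in the Ezh2a mutant libraries, against 50.8, 51.6 and 47.1 CPM in their wild types. All mutant libraries were again lower, by -0.33 on the log2 scale (SE 0.064, adjusted p = 0.000818). Prdx2, the peroxiredoxin gene that overlaps Junb on the other strand, had a log2 difference of -0.22 in the same comparison (adjusted p = 6.71e-05), and its part in the Junb value was not tested.

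Atf3 was at 10.3, 10.7 and 9.95 CPM in the Ezh2a mutant libraries, against 7.10, 7.52 and 7.87 CPM in their wild types. The groups were apart and Atf3 had the largest rise among the members, 0.46 on the log2 scale (SE 0.094, adjusted p = 0.00139). Egr1 was at 96.5, 107 and 112 CPM in the Ezh2a mutant libraries, against 94.6, 96.9 and 88.8 CPM in their wild types. The lowest mutant library lay just under the highest wild-type library, so the groups overlapped. Its log2 difference was 0.17 (SE 0.052, adjusted p = 0.026). The Egr1 call was lost when any 1 of 4 libraries was left out: the adjusted p was 0.0562 to 0.134 without replicate 2 or 3 of the Ezh2a mutant or without replicate 1 or 3 of its wild type.

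The other 6 members did not pass the test in Ezh2a mutant cells. Fosl1 was at 1.49, 1.60 and 1.70 CPM in the mutant libraries, against 2.22, 1.90 and 2.52 CPM in their wild types. These groups did not overlap, but at this low level the log2 difference of -0.47 had an SE of 0.18 and an adjusted p of 0.0715. Jund, at 54.5 to 62.4 CPM in the mutant libraries and 63.1 to 66.0 CPM in their wild types, also did not overlap (log2 difference -0.15, SE 0.090, adjusted p = 0.298), and passed without the filter (adjusted p = 0.0199) and in a fit of these 6 libraries alone (0.0237). Jun averaged 84.7 ± 0.80 CPM in mutant cells and 85.8 ± 0.718 CPM in wild-type cells (SD, n = 3 each). The log2 differences were 0.074 for Fos, -0.18 for Fosb, -0.018 for Jun and 0.079 for Egr2, each with overlapping groups and an adjusted p between 0.428 and 0.84.

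**Figure D2:**
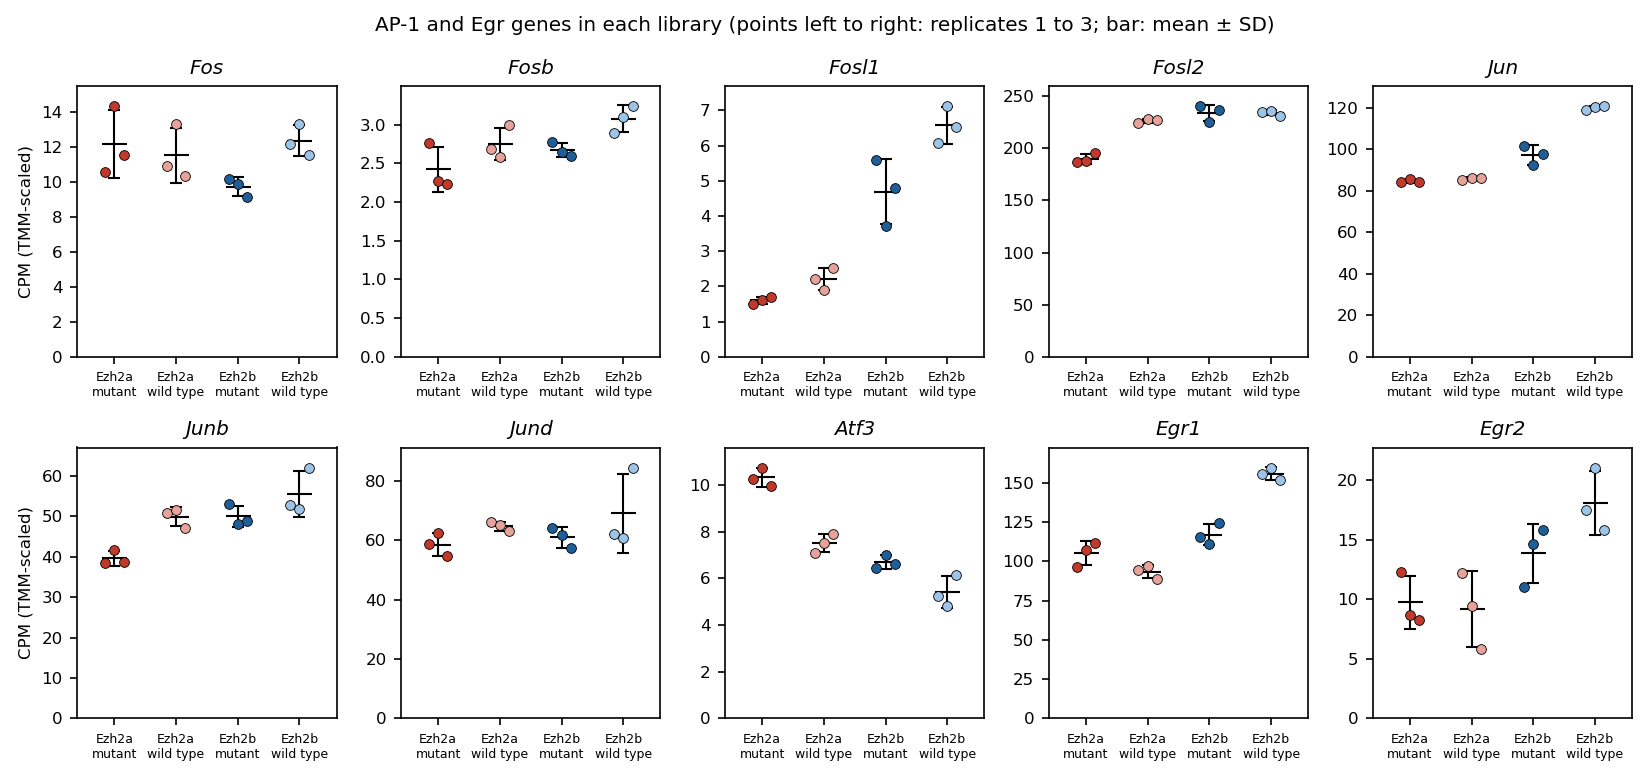
Each panel gives the CPM of 1 member in every library (points), with the group mean and SD, for Ezh2a mutant, Ezh2a wild type, Ezh2b mutant and Ezh2b wild type from left to right. Fosl2 and Junb sit lower in Ezh2a mutant libraries than in their wild types, and Jun, Egr1 and Fosl1 sit lower in Ezh2b mutant libraries than in theirs.

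In Ezh2b mutant cells, Jun, Egr1, Fosl1 and Fos fell and Atf3 rose. That is 5 of the 10 members (50%, 1 higher and 4 lower), against 26.1% of all genes tested (14.0% higher and 12.1% lower). The members' median log2 difference was -0.26, against -0.0056 over all genes. With library totals alone, 1910 genes rose and 2525 fell, in place of 2200 and 1905, and 0 members rose and 5 fell. The member count was 8 (1 higher, 7 lower) without the filter on low counts, where 4295 of 24483 genes passed. It was 2 without replicate 2 of the Ezh2b mutant and 3 without its replicate 3, and Jun and Egr1 passed in all 13 alternatives. The libraries of the groups were apart for 6 members (1 higher, 5 lower), against 37.2% of all genes (19.2% higher, 17.9% lower).

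Jun, the archetypal AP-1 subunit, was at 102, 92.4 and 97.9 CPM in the Ezh2b mutant libraries, against 119, 120.2 and 121 CPM in their wild types. All mutant libraries were lower, by -0.31 on the log2 scale (SE 0.036, adjusted p = 2.17e-06). Junos, which overlaps Jun on the other strand, had a log2 difference of -0.41 (adjusted p = 0.00937), with 1936 counts over all libraries against 40943 for Jun. Egr1 was at 116, 111 and 124 CPM in the Ezh2b mutant libraries, against 156, 159.7 and 152 CPM in their wild types. The groups did not overlap, with a log2 difference of -0.41 (SE 0.051, adjusted p = 3.19e-06).

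Fosl1 was at 5.58, 3.72 and 4.79 CPM in the Ezh2b mutant libraries, against 6.07, 7.13 and 6.53 CPM in their wild types. All mutant libraries were lower (log2 difference -0.50, SE 0.14, adjusted p = 0.00935), but replicate 2 was the lowest of them, and without it the difference was -0.34 (adjusted p = 0.0841). Ccdc85b, the gene that overlaps Fosl1, was at 15.2 CPM in Ezh2b mutant cells and 20.7 CPM in their wild type (log2 difference -0.46, adjusted p = 0.000354), and at 12.5 and 13.0 CPM in Ezh2a mutant cells and theirs. It had 6574 counts over all libraries against 1613 for Fosl1. How much of either gene's value comes from the shared bases was not tested.

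Fos, the founding member of its family, was at 10.2, 9.87 and 9.13 CPM in the Ezh2b mutant libraries, against 12.2, 13.3 and 11.5 CPM in their wild types. The groups did not overlap, and the log2 difference was -0.34 (SE 0.11, adjusted p = 0.0263). The adjusted p was 0.0514 to 0.105 when replicate 2 or 3 of the Ezh2b mutant or replicate 1 or 2 of its wild type was left out. Atf3 was at 6.43, 7.0 and 6.63 CPM in the Ezh2b mutant libraries, against 5.24, 4.82 and 6.15 CPM in their wild types. All mutant libraries were higher, by 0.29 on the log2 scale (SE 0.099, adjusted p = 0.0333). This call was also lost without replicate 2 or 3 of the mutant or replicate 1 or 2 of the wild type (adjusted p = 0.0593 to 0.119), and with library totals (0.062), with DESeq2 (0.0688) and in a fit of these 6 libraries alone (0.0786).

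Fosl2, which fell in Ezh2a mutant cells, was at 240.4, 225 and 236 CPM in the Ezh2b mutant libraries, against 235, 236 and 231 CPM in their wild types. The groups overlapped fully, and the log2 difference of -0.0014 had an SE of 0.034 (adjusted p = 0.984). Junb ran from 48.2 to 53.0 CPM in Ezh2b mutant cells and from 51.7 to 62.1 CPM in their wild type (log2 difference -0.16, adjusted p = 0.0648), and the difference was -0.060 (adjusted p = 0.464) without replicate 3 of the wild type. Jund, which encodes the Jun protein known for steady expression in resting cells, had 64.1, 61.7 and 57.3 CPM in the mutant libraries, against 62.1, 60.6 and 84.5 CPM in their wild types. The highest value was that of replicate 3 of the Ezh2b wild type, and the log2 difference of -0.19 (adjusted p = 0.124) was -0.0031 without that library. Without wild-type replicate 1 or 2, which leaves it in, Jund passed the test (-0.26 and -0.27, adjusted p = 0.0419 and 0.0277), and so did Junb (adjusted p = 0.0409 and 0.0273). Junb also passed without replicate 1 of the mutant (adjusted p = 0.0471) and with library totals (0.0337), and both passed without the filter (adjusted p = 0.0119 for Junb and 0.000572 for Jund). Fosb was at 2.60 to 2.77 CPM in the mutant libraries and 2.89 to 3.24 CPM in their wild types, apart but not past the test (adjusted p = 0.284). Egr2, a regulator of myelination in Schwann cells, ran from 11.1 to 15.85 CPM in the mutant libraries and from 15.79 to 21.1 CPM in their wild types, a slight overlap, with a log2 difference of -0.37 and an SE of 0.18 (adjusted p = 0.156). Egr2 passed without the filter (adjusted p = 0.000112) and in a fit of these 6 libraries alone (0.0476).

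The difference between the mutant effects was tested as the Ezh2b effect minus the Ezh2a effect, which uses each mutant's own wild type. It passed for 3 members (30%, 1 higher and 2 lower), against 26.5% of all genes (14.7% higher and 11.9% lower), so the share was near that of all genes. Egr1 had the largest difference at -0.58 (SE 0.073, adjusted p = 4.18e-06), since its effect was 0.17 in Ezh2a mutant cells and -0.41 in Ezh2b mutant cells. For Jun the difference was -0.29 (SE 0.052, adjusted p = 0.000305) and for Fosl2 it was 0.25 (SE 0.048, adjusted p = 0.000522). These 3 passed in all 18 alternatives. Fos missed the threshold at -0.41 (SE 0.15, adjusted p = 0.0544) and passed with library totals (-0.48, adjusted p = 0.0214), without the filter (adjusted p = 0.00954) and without replicate 1 of the Ezh2a mutant, replicate 2 of its wild type or replicate 3 of the Ezh2b wild type (adjusted p = 0.0157 to 0.0372). Without replicate 3 of the Ezh2b wild type 5 members passed, among them Junb at 0.27 (adjusted p = 0.00774), against 0.17 (adjusted p = 0.171) with it. Without the filter 5 members passed as well, among them Egr2 (adjusted p = 0.00259), where 4394 of 24483 genes passed. The Atf3 effects of 0.46 and 0.29 differed by -0.17 (SE 0.14, adjusted p = 0.419). With library totals, 1723 of all genes had a higher effect in Ezh2b and 2787 a lower one, in place of 2305 and 1863.

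**Figure D3:**
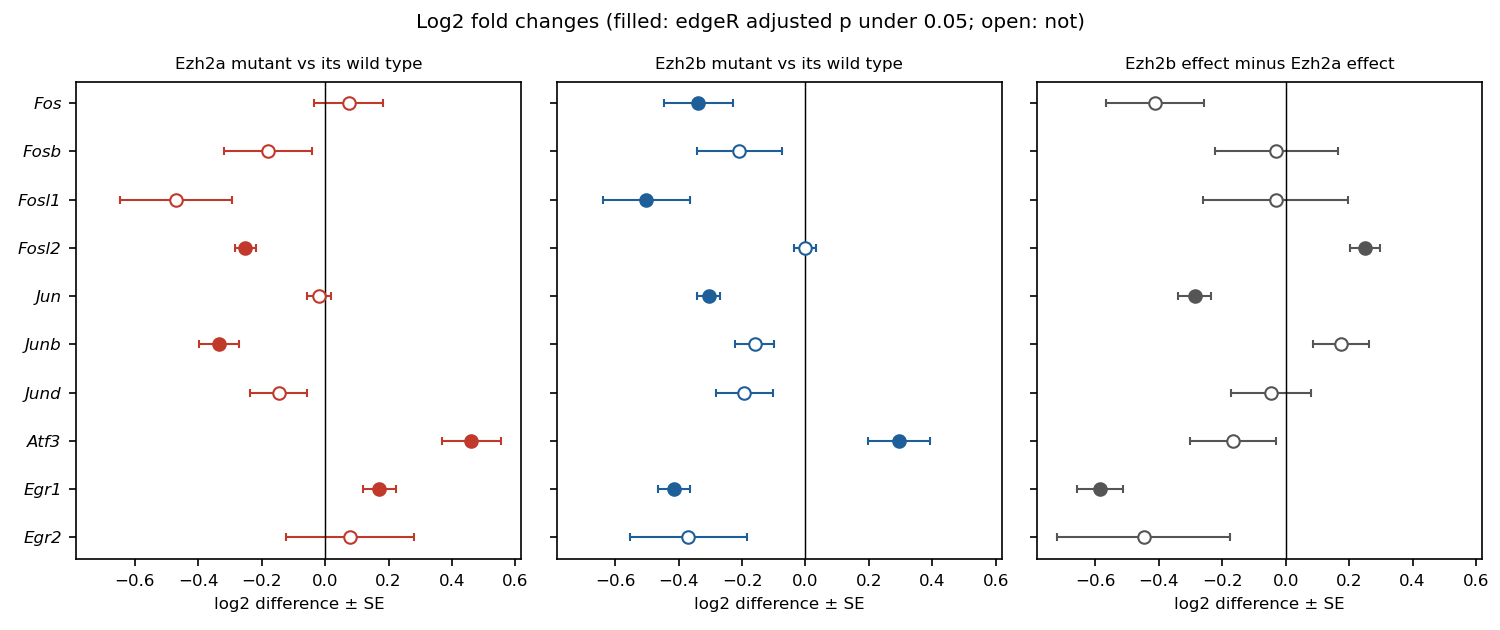
Points give the log2 difference of each member with its standard error, for Ezh2a mutant against its wild type, Ezh2b mutant against its wild type, and the Ezh2b effect minus the Ezh2a effect; filled points passed the test. Egr1 is at 0.17 in Ezh2a and -0.41 in Ezh2b, while Atf3 is above 0 in both mutants.

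The wild types themselves differed for 6 of the 10 members (60%, 5 higher and 1 lower in Ezh2b wild type), against 42.3% of all genes (20.4% higher and 21.8% lower). Their libraries were apart for 7 members (6 higher, 1 lower), against 48.9% of all genes (23.4% higher, 25.5% lower). In Ezh2b wild-type cells relative to Ezh2a wild-type cells, Fosl1 was higher by 1.57 on the log2 scale (SE 0.15, adjusted p = 5.13e-08), Egr2 by 0.96 (SE 0.19, adjusted p = 0.000419), Egr1 by 0.74 (SE 0.051, adjusted p = 5.23e-10) and Jun by 0.49 (SE 0.037, adjusted p = 1.69e-09). Atf3 was lower (-0.45, SE 0.098, adjusted p = 0.000914). Junb was higher by 0.16 (adjusted p = 0.0418), and missed the test at 0.071 (adjusted p = 0.317) without replicate 3 of the Ezh2b wild type and at adjusted p of 0.0647 and 0.176 without replicate 1 or 3 of the Ezh2a wild type. It also missed with library totals (0.0507), with DESeq2 (0.0699) and in a fit of these 6 libraries alone (0.0638). The library levels of these genes are those given above for the wild types. This comparison shares the Ezh2b wild-type libraries with the Ezh2b mutant comparison, so a high wild-type value raises one difference and lowers the other. Side by side, the values for Egr1 were -0.41 in the mutant comparison and 0.74 between wild types, for Jun -0.31 and 0.49, and for Fosl1 -0.50 and 1.57. The mutant line a wild type belongs to and its set of libraries cannot be told apart here. All 20 macrophage markers were lower in Ezh2b than in Ezh2a wild-type cells, and their part in the members' values was not tested.

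The members differed in how tightly the libraries of a group agreed. The pooled within-group SD on the log2 CPM scale was 0.36 for Egr2, whereas genes within 0.5 log2 of its mean level had a median SD of 0.098, and 99.3% of them were steadier. Jund, at 0.15 against 0.054, was more variable than 99.1% of such genes, Junb than 93.9%, Fos than 93.3% and Egr1 than 92.1%. Jun (0.036) and Fosl2 (0.033) were steadier than most, with 19.1% and 21.6% of genes at like level below them, and Fosb was lower still at 3.83%. The Jund value rests largely on replicate 3 of the Ezh2b wild type. The Junb value draws on the same library, which was at 62.1 CPM, against 52.8 and 51.7 CPM in the others of its group. Neither SD was computed without that library. Egr2 ranged widely in each group, for example 12.3, 8.66 and 8.27 CPM in Ezh2a mutant libraries and 12.2, 9.46 and 5.82 CPM in their wild types.

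**Figure D4:**
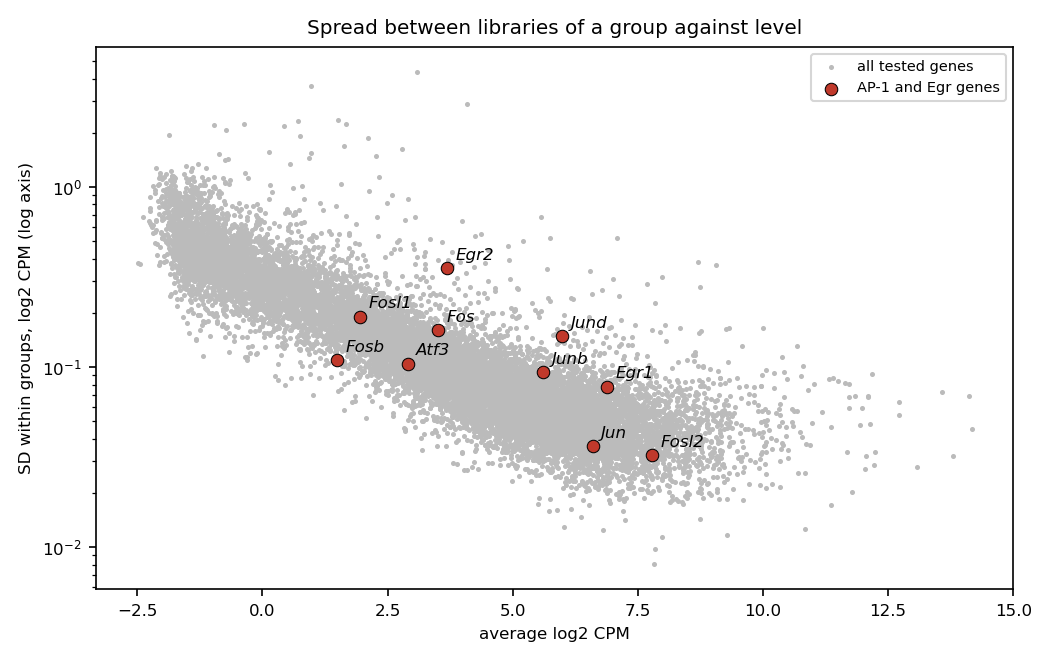
The within-group SD of log2 CPM (vertical axis) is drawn against mean log2 CPM for all tested genes, with the 10 members marked. Egr2 (0.36) and Jund (0.15) lie above most genes of their level, and Jun and Fosl2 lie low.

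Genes around AP-1 were described by lists of regulators, partners and targets. The lists were chosen with earlier results of these data known, so their counts beside all genes are a description and not a test. The MAPK feedback list holds Dusp phosphatases, the Sprouty and Spred inhibitors and Errfi1. Many of them are induced by ERK signalling and dampen it. In Ezh2a mutant cells 6 of 12 tested members fell and 0 rose, against 9.61% higher and 10.2% lower among all genes, and the median log2 difference was -0.21, against -0.0015 over all genes. Dusp4 averaged 4.59 ± 0.404 CPM in the mutant and 8.32 ± 0.158 CPM in its wild type (log2 difference -0.86, adjusted p = 4.56e-06). Dusp1 (-0.43, adjusted p = 0.000539) and Spry2 (-0.33, adjusted p = 0.000153) fell as well. In Ezh2b mutant cells 4 of the 12 rose and 2 fell, against 14.0% higher and 12.1% lower among all genes (median 0.053, against -0.0056 over all genes). Dusp4 averaged 13.3 ± 1.07 CPM in this mutant and 7.26 ± 0.71 CPM in its wild type (0.87, adjusted p = 4.19e-07), and Spry1 (0.50, adjusted p = 2.7e-08) and Dusp6 (0.38, adjusted p = 0.00103) rose too. The effects of the mutants differed for 6 of the 12, all higher in Ezh2b, against 14.7% of all genes higher and 11.9% lower.

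The list of AP-1 target genes holds secreted proteases, their regulators, cytokines and surface or cell cycle genes. In Ezh2a mutant cells 7 of 16 fell and 1 rose (median -0.31), against 10.2% lower and 9.61% higher among all genes. The collagenase gene Mmp13 averaged 9.57 ± 0.856 CPM in the mutant and 16.7 ± 0.99 CPM in its wild type (-0.80, adjusted p = 9.4e-06), the stromelysin gene Mmp3 had -0.71 (adjusted p = 7.04e-05) and Spp1, which encodes osteopontin, had -0.55 (adjusted p = 8.43e-09). In Ezh2b mutant cells 9 of 16 rose and 2 fell (median 0.31), against 14.0% and 12.1% of all genes, and 7 rose and 2 fell without replicate 3 of the wild type. Mmp13 averaged 9.29 ± 1.06 CPM in the Ezh2b mutant and 0.636 ± 0.173 CPM in its wild type (3.80, adjusted p = 5.56e-13). Mmp9, a gelatinase gene, had 1.80 (adjusted p = 1.09e-09) and Mmp3 0.74 (adjusted p = 0.000144). The effects of the mutants differed for 13 of the 16, 12 higher and 1 lower in Ezh2b, against 26.5% of all genes. The wild types differed too: 7 of the 16 were higher and 6 lower in Ezh2b, against 20.4% and 21.8% of all genes. Mmp13 was at 0.636 CPM in Ezh2b wild type and 16.7 CPM in Ezh2a wild type. Beside these values, the summed macrophage markers were 562 to 604 CPM in Ezh2b mutant libraries and 128 to 141 CPM in their wild types, and macrophages are also known to express Mmp9 and Spp1. The part of such cells in this list was not tested.

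Among 33 other immediate early genes, 2 rose and 14 fell in Ezh2a mutant cells (median -0.11), against 9.61% higher and 10.2% lower among all genes. The Ezh2b mutant had 7 rises and 7 falls (median -0.034), against 14.0% and 12.1% of all genes. In Ezh2a mutant cells the prostaglandin synthase gene Ptgs2 averaged 59.5 ± 8.65 CPM, against 112 ± 3.19 CPM in wild-type cells (-0.91, adjusted p = 1.33e-06), and Csrnp1 (-0.51) and the antiproliferative gene Btg2 (-0.50) fell. In Ezh2b mutant cells Arc, best known as an activity-regulated gene of neurons, averaged 5.09 ± 0.645 CPM, against 15.4 ± 2.15 CPM in wild-type cells (-1.59, adjusted p = 6.59e-09), and the kinase gene Sgk1 fell (-0.44) while Csrnp1 rose (0.53). Of Egr3, Nab1 and Nab2, 0 changed in Ezh2a mutant cells. In Ezh2b mutant cells Egr3, a paralog of Egr1, fell by 0.70 on the log2 scale (adjusted p = 0.000398) and Nab2, a corepressor of Egr1 that Egr1 itself induces, fell by 0.29 (adjusted p = 2.93e-05). The effects of the mutants differed for both, by -0.94 for Egr3 and -0.23 for Nab2. Between the wild types, Egr3 was higher in Ezh2b by 1.12 (adjusted p = 1.25e-06) and Nab2 by 0.46 (adjusted p = 3.77e-08). Arc was higher by 2.005 (adjusted p = 1.46e-10). Of the 33 other immediate early genes, 16 were higher and 5 lower in Ezh2b wild type, against 20.4% and 21.8% of all genes.

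Other zipper partners of AP-1 gave 2 rises and 1 fall among 9 in Ezh2a mutant cells, among them Maf at 0.49 and Jdp2 at -0.12. Of all genes, 9.61% were higher and 10.2% lower in that mutant. In Ezh2b mutant cells the partners gave 4 rises and 0 falls, among them Maf at 0.28 and Mafk at 0.28, against 14.0% higher and 12.1% lower among all genes. Maf is also a macrophage factor, and the part of the macrophage markers was not tested. Of 12 upstream regulators of the SRF, TCF and CREB classes, 2 rose in Ezh2a mutant cells (Crtc1 at 0.19 and Creb1 at 0.12), and 1 rose and 2 fell in Ezh2b mutant cells (Crem at 0.27, Crtc1 at -0.28 and Atf1 at -0.14). Of 10 genes of the ATF4 stress pathway, which can induce Atf3, 1 rose and 1 fell in Ezh2a mutant cells (Chac1 at 0.20 and Ppp1r15a at -0.15). In Ezh2b mutant cells 0 rose and 2 fell (Psat1 at -0.21 and Phgdh at -0.15), beside a rise of Atf3 in each mutant. The counts of the regulator and ATF4 lists were near the shares of all genes that passed, 19.8% in Ezh2a and 26.1% in Ezh2b. With library totals the ATF4 counts were 3 rises and 0 falls in Ezh2a, and 0 rises and 3 falls in Ezh2b.

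**Figure D5:**
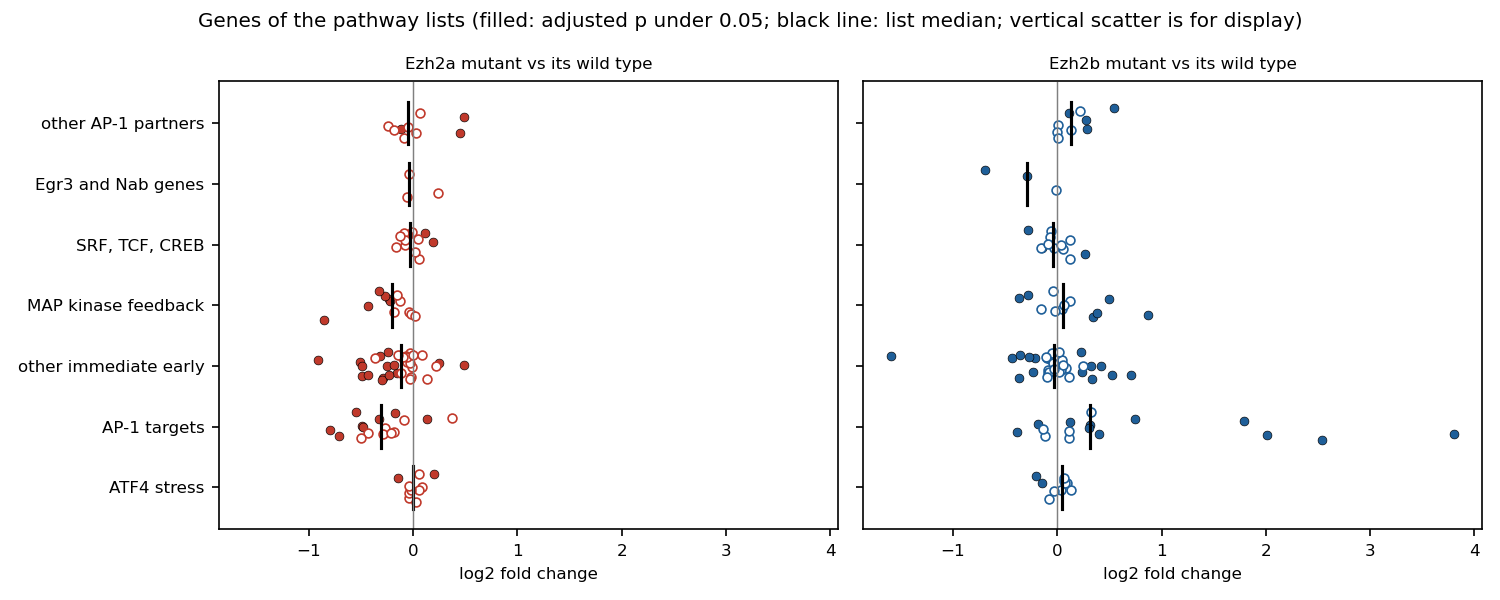
For each list, points give the log2 difference of every tested gene in Ezh2a mutant and Ezh2b mutant cells against their own wild types, with the list median. The MAPK feedback and AP-1 target medians are below 0 in Ezh2a (-0.21 and -0.31) and above 0 in Ezh2b (0.053 and 0.31).

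For each member that changed in a mutant, the genes with the most similar profile over the 12 libraries were found among 11752 genes, by the root mean square difference of centred log2 CPM. Jun was closest to Vim, which encodes vimentin (0.040, where the median gene was at 0.23), Dkc1 and Prkci. Fosl2 was closest to Mbnl2 (0.032), Arid5b and Eogt. Egr1 lay nearest Lrp8 (0.068), Rasal2 and Cd109, and Atf3 nearest Itm2a (0.072), Col11a1 and Aspn. Fosl1, with the widest range of the members, was nearest Cavin2 (0.13, where the median gene was at 0.82), Hmga2 and Mfap3l. Junb was nearest Zfp993, Ripk2 and Pawr, and Fos nearest Haspin, Pih1d1 and Nfic. The 12 points share libraries and groups, so likeness here is a description of the 4 group levels as much as of single libraries.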

How the data were processed

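RNA of 12 MEF libraries was sequenced after poly-T bead selection and random-hexamer cDNA synthesis, per the labels' protocols. The authors deposited raw counts per gene symbol in 1 table. The submitters' processing notes name fastp 0.21.0, HISAT2 2.1.0, StringTie 2.1.5, edgeR 4.2.1 and GRCm38 (mm10). Neither the counting program nor its annotation release or strand setting is given in the sources used here. Values of 2 (13267 entries) far outnumbered values of 1 (3357 entries), so counts divided by 2 were tried as well.

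Members and lists were chosen with earlier results of these data known. Genes were filtered with filterByExpr and scaled by TMM, and edgeR 4.0.16 (R 4.3.3) was used to fit the 12 libraries with a mean for each group, leaving 8 residual degrees of freedom. Contrasts used the quasi-likelihood test, adjusted by Benjamini-Hochberg over 15708 genes, with 0.05 as threshold. The SE is the log2 difference divided by the square root of F. Columns were assigned by sample description. Replicate numbers were not used to pair the samples, except in the replicate block named below. The 10 members were always named, from each list up to 3 changed genes per mutant with average log2 CPM of at least 1 and separated libraries, by size of change. A gene that this rule names is not reported here. Profiles used log2 CPM with a prior count of 2. The fit was tested on simulated counts. CUT&Tag, described in the series' design text, was not analysed here. Alternatives were DESeq2 (1.42.0), its size factors, library totals, no filter, counts divided by 2, the compared libraries alone, a replicate block and leaving out each library. For family shares, exon bases or the longest transcript in GENCODE M21 gave the length.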

Additional observations from a re-analysis of the deposited data

Results flagged for a closer look

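For 3 members the effect of the Ezh2b mutation differed from that of the Ezh2a mutation by a test of the difference itself (edgeR's quasi-likelihood test, adjusted over 15708 genes). Fosl2 had a difference of 0.25 on the log2 scale (adjusted p = 0.000522), with an effect of -0.0014 in Ezh2b mutant cells and -0.25 in Ezh2a mutant cells. Jun had a difference of -0.29 (adjusted p = 0.000305), with effects of -0.31 and -0.018. Egr1 had a difference of -0.58 (adjusted p = 4.18e-06), with effects of -0.41 and 0.17. The wild types differed for Jun (0.49) and Egr1 (0.74) and not past the test for Fosl2 (0.049, adjusted p = 0.267).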

How the results depend on the processing

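Over the members, 570 values were recomputed in alternatives: 506 kept direction and side of the threshold, 23 lost the call, 20 gained one and 21 changed sign, of which 0 had a call in the analysis as reported. Fosl2, Junb and Atf3 in Ezh2a and Jun and Egr1 in Ezh2b passed in all 13. Without the filter 8 members changed in Ezh2b (1 higher, 7 lower) and 5 differed between mutants, where 4295 and 4394 of 24483 genes passed. Sign changes were Fosl2 in Ezh2b (0.0052 with DESeq2 size factors, 0.0037 without filter, 0.0041 with DESeq2, 0.0055 with counts divided by 2) and Jun in Ezh2a (0.023 with library totals). The cause was not tested. With a library left out, ranges were -0.052 to 0.19 (Fos, Ezh2a), -0.16 to 0.36 (Egr2, Ezh2a), -0.017 to 0.033 (Fosl2, Ezh2b), and for the difference between mutants -0.091 to 0.079 (Fosb), -0.17 to 0.13 (Fosl1) and -0.13 to 0.14 (Jund). Jund between wild types ran from -0.074 to 0.19. Member counts then ran from 3 to 4 in Ezh2a, 2 to 6 in Ezh2b, 3 to 5 for the difference and 5 to 6 between wild types. Where an arm is left with 2 libraries, the spread is pooled over groups. Same-numbered samples correlated at -0.0216 to 0.022, which gave no sign of pairing by number. These are deviations from means of 3 libraries, so they cannot show that the samples are unpaired. With the replicate block 4, 5, 4 and 5 members changed in the Ezh2a, Ezh2b, difference and wild-type comparisons, and 3081, 4065, 4111 and 6615 genes, and the Fos difference was -0.42 (adjusted p = 0.0154). The block ended the Junb call between wild types (0.16, adjusted p = 0.0603).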
